A study of Mus musculus with 8 samples.

Results

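The immediate early and activity-regulated genes of the mouse brain were followed in the forebrain of TgCRND8 mice (Tg) and of non-transgenic littermates (NTg), all aged 18 months. The set has 34 members, taken by symbol from a fixed list of activity-induced genes, out of 56748 genes in the count table, and all 34 were abundant enough to be tested. TgCRND8 mice overexpress APP, the amyloid precursor protein. As background, the transgene of this line is a human APP carrying familial Alzheimer mutations, driven by the hamster prion protein promoter. Polyadenylated RNA from pulverised frozen forebrain was sequenced in 4 Tg and 4 NTg libraries. The labels number the replicates but do not say outright that each is a separate animal, and the p-values then describe the variation among these libraries, which may be technical. One tissue, age and batch label covers all 8. The labels' protocols give a 12-hour light cycle but neither the hour of harvest nor the handling before it.

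Immediate early genes are switched on within minutes of a stimulus, from transcription factors already present in the cell, without new protein synthesis. In neurons, calcium entry through synaptic receptors and channels activates kinases that act on CREB, SRF and MEF2 at their promoters. Many of the products are themselves transcription factors, which then switch on later genes for synapses and secreted factors, and others are phosphatases and kinases that end the signal. Their RNAs are short-lived, so tissue levels follow recent activity, and several are also induced in glia and vessels by stress or injury.

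The stretches before the transcription start are shown for 5 members: Fos, Npas4 and Nr4a1, which carry a motif of the cAMP response element that CREB binds, and Jun and Atf3, the only members whose genotypes did not overlap in level. Each run holds the 250 bases before the start, 5′ to 3′ on the gene's strand, from RefSeq on build GRCm38.p6, which is older than the GRCm39 build of the counts. Capitals mark the short form of that element, TGACG, or CGTCA where it lies on the other strand. The runs lie at chr12:85473640-85473889, plus strand (Fos), chr19:4989972-4990221, minus strand (Npas4), chr15:101266596-101266845, plus strand (Nr4a1), chr4:95052223-95052472, minus strand (Jun) and chr1:191183334-191183583, minus strand (Atf3).
Fos: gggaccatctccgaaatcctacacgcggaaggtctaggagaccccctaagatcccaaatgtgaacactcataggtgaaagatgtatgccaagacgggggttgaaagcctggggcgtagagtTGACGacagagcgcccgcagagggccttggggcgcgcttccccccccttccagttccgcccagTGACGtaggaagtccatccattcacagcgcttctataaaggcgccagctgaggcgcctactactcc
Npas4: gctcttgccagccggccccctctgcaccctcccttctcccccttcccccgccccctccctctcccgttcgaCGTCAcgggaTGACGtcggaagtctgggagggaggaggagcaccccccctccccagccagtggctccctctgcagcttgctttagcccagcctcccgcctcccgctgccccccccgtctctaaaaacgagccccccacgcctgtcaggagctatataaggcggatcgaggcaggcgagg
Nr4a1: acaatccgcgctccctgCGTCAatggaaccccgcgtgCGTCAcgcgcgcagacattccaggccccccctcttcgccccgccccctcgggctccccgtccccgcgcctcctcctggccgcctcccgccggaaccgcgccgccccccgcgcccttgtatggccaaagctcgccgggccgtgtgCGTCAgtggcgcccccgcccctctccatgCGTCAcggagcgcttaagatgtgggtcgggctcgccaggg
Jun: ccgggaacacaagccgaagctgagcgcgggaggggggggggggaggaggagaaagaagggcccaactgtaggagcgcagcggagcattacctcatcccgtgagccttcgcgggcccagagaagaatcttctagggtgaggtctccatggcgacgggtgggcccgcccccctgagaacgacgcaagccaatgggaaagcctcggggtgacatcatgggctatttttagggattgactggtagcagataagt
Atf3: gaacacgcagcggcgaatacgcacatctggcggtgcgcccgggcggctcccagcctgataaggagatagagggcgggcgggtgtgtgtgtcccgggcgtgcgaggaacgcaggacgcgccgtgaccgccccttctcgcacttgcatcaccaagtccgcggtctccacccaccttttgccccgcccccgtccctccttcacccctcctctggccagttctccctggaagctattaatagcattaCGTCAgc

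Fos held 2 copies of the short form in its run, Npas4 2, Nr4a1 4 and Atf3 1, the last close to the start, and Jun held none. RefSeq promoter windows of 300 bases (250 before and 50 after a start) were matched for 26 of the 34 members. The short form was present in 18 of these 26 (69.2%), against 23.0% of the 27025 genes in the table, counting a gene once if any of its windows held it. By window, it was in 56.4% of the 39 windows of members, against 20.8% of all 32851 windows. The shares over all genes were not matched for base composition. The full element TGACGTCA, which contains the short form on both strands, was present in 3 of 26 members (Dusp1, Btg2 and Maff), or 11.5%, against 2.0% of genes. The CArG box of SRF was present in 2 of 26 (Egr2 and Dusp5), or 7.7%, against 1.8% of genes. A site of the Egr factors themselves, GCGNGGGCG on either strand, was present in 9 of 26 (34.6%), against 6.3% of genes. The AP-1 motif TGANTCA was present in 1 of 26, or 3.8%, against 9.0% of genes. The letters TATAAA of the TATA box, searched on either strand anywhere in a window, were present in 6 of 26, or 23.1%, against 15.7% of genes. Relative to the start, their first base lay at -33 in Fos, -27 in Gadd45g, -46 in Gadd45b, -91 in Inhba, -164 in Nr4a2 and 0 in Junb. These matches describe letters in a window and not binding. The SD of log2 CPM between libraries of one genotype, described further on, had a median of 0.27 in the 18 members with the short form and 0.27 in the 8 without it.

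The level of a gene is given as CPM, its counts per 1000000 counts of a library, with library sizes scaled by TMM factors. Library totals were 57129090 to 65242741 counts, and the members held 66 to 9669 counts in a library. At the lowest of these levels counting error (12.3% at 66 counts of Maff and 9.85% at 103 counts of Atf3) is of the size of the spread between libraries of those genes. The targeted gene App stood at 1623, 1486, 1452 and 1390.3 CPM in NTg replicates 1 to 4 and at 2532, 2934, 2979.8 and 2958 in Tg and was higher in all 4 Tg libraries (edgeR adjusted p = 0.00146, log2 fold change 0.94 with an SE of 0.07). How far reads of the transgene add to the mouse App count was not tested. The 8 markers of cortical and hippocampal excitatory neurons were all counted in every library (Slc17a7 at 31313 or more counts). Cerebellar markers, which forebrain tissue should lack, were counted as well (Cbln3 at 6994 to 18948 counts). Mitochondrial genes took 6.09% to 7.99% of counts. Tg replicate 1 was the lowest library in many members, as described next. For that reason the value without it is given beside the log2 fold change of a member that it moved by more than 1.5 times.

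As a list, the early genes differed more between libraries of one genotype than between the genotypes. The score of a library is the mean log2 CPM over the 34 members, here relative to the NTg mean. It was 0.09, -0.14, 0.17 and -0.12 in NTg replicates 1 to 4 and -0.38, 0.14, 0.07 and -0.09 in Tg replicates 1 to 4. NTg replicates 1 and 3 and Tg replicates 2 and 3 were the high libraries, Tg replicate 1 was the lowest, and the genotypes overlapped. The difference, Tg minus NTg, was -0.06, against an SD between libraries of 0.15 in NTg and 0.23 in Tg (n = 4 each). From the lowest to the highest library the score spanned 1.46-fold. Without Tg replicate 1 the difference was 0.04, so its sign rested on that library.

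**Figure D1:**
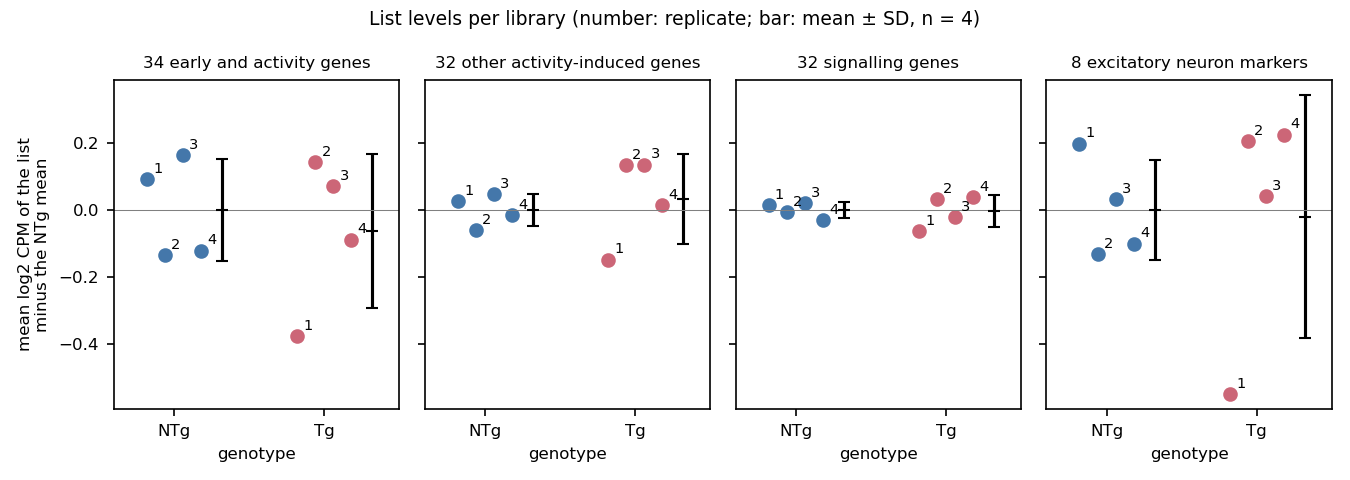
Mean log2 CPM of 4 gene lists per library relative to the NTg mean (y axis) by genotype (x axis), with points numbered by replicate and black bars for mean ± SD (n = 4). Tg replicate 1 is the lowest library for the 34 early genes, at -0.38, and for the excitatory neuron markers, at -0.55, while the signalling genes stay between -0.06 and 0.04.

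The low position of Tg replicate 1 was shared across most roles. It had the lowest level of the 8 libraries in 18 of the 34 members, or 52.9%, where 11.8% of all 21588 genes tested had their lowest level in it. It lay below the NTg mean in 30 of the 34 members. The 18 included 4 of 4 Egr genes, 4 of 6 signalling feedback genes, 3 of 6 Fos and Jun genes, 2 of 3 Nr4a genes and 2 of 3 synaptic and secreted effectors. None of the Klf factors and none of Crem, Maff and Atf3 was lowest there. NTg replicate 3 was the opposite case within its genotype, with the highest of the 4 NTg levels in 17 of 34 members where 23.0% of all genes had theirs, and 31 members above the NTg mean.

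Marker levels were uneven between libraries as well. The mean log2 CPM of the 8 excitatory neuron markers was 0.20, -0.13, 0.03 and -0.10 in NTg and -0.55, 0.21, 0.04 and 0.23 in Tg, relative to the NTg mean, so the library lowest in early genes was also lowest in these markers. The other libraries lay on the same side of the NTg mean in both lists, except Tg replicate 4. That library was highest in the markers and below the NTg mean in early genes. The summed level of the markers was 2754, 2376, 2714 and 2234 CPM in NTg and 1912, 2757, 2536 and 2691 CPM in Tg. The 6 cerebellar and hindbrain markers summed to 275, 207, 279 and 542 CPM in NTg and 515, 408, 346 and 455 CPM in Tg. NTg replicate 4 and Tg replicate 1 were highest in this sum, in which Cbln3 and Gabra6 weigh most. Their mean log2 CPM relative to the NTg mean was 0.10, 0.19, -0.45 and 0.16 in NTg and 0.52, 0.51, 0.36 and -0.38 in Tg. On that measure NTg replicate 4 did not stand out, but the measure weighs Hoxb5 and Hoxc6 equally with the rest. Its Hoxb5 level was the lowest in NTg, and Hoxc6 rests on 1 to 50 counts in a library. Gabra6, Pcp2, Cbln3 and En2 were all highest of NTg in replicate 4, at 180, 25.7, 303 and 32.3 CPM. In the other NTg libraries they were at 86.0, 11.9, 160 and 17.8 CPM or less. NTg replicate 4 and Tg replicate 1 were highest in the 5 red blood cell genes. These summed to 1685, 1282, 1876 and 3271 CPM in NTg and 3003, 489, 732 and 448 CPM in Tg. In whole tissue fewer cells of a type and less RNA per cell cannot be told apart, and the part of these cells in the early gene levels was not tested.

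**Figure D2:**
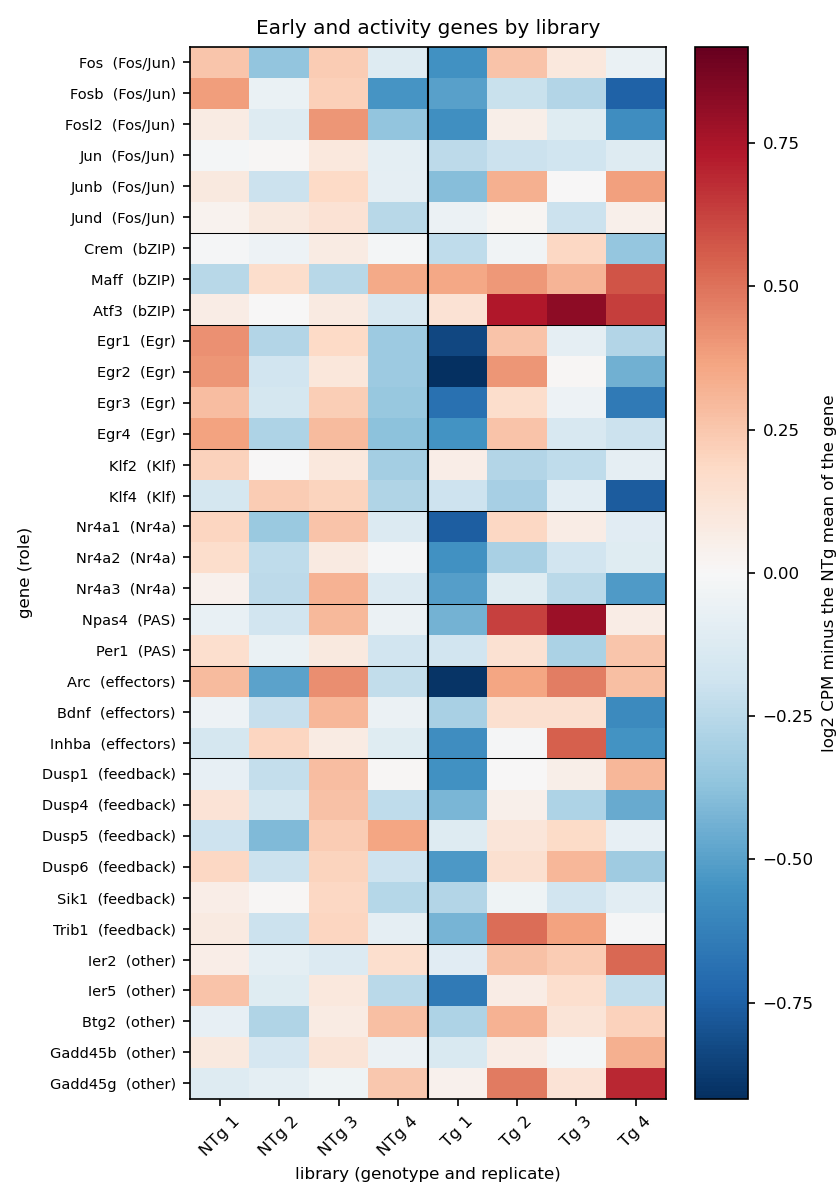
Log2 CPM of each of the 34 members (rows, grouped by role) in each library (columns) minus the NTg mean of that gene, in red where higher and blue where lower. The column of Tg replicate 1 is blue in 30 of 34 rows and that of NTg replicate 3 is red in 31, while Atf3 is red in all 4 Tg columns.

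No member passed the test between genotypes. The quasi-likelihood test of edgeR called 0 of 34 at an adjusted p of 0.05, where it called 0.0139% of all genes tested. Adjusted p-values of the members ran from 0.230 (Atf3) to 0.999 (Dusp5). DESeq2 called 1 member, Atf3, against 1.81% of all genes, and limma-voom called 0, against 0.0139%. Without Tg replicate 1 edgeR called 1 member, Atf3, against 1.43% of all genes. That library had the lowest Atf3 level in Tg, so leaving it out widens the difference by itself. The call without it is therefore no separate support. At an unadjusted p under 0.05, 7 of the 34 differed (20.6%), against 7.36% of all genes. Of these, 3 were higher in Tg (Atf3, Maff and Gadd45g), where the share over all genes was 4.68%, and 4 lower (Jun, Fosb, Nr4a2 and Nr4a3), where it was 2.68%. With 1 library left out this count ran from 2 (without NTg replicate 3) to 11 (without NTg replicate 4), and it was 3 without NTg replicate 1 or Tg replicate 4. Without Tg replicate 1 it was 5, of which 3 were among the 7 (Jun, Gadd45g and Atf3), against 9.65% of all genes. For the other refits the share over all genes was not taken, so their counts cannot be set against it. Jun and Atf3 were the 2 members under that p in each of the 8 refits. The genotypes did not overlap in 2 of 34 members, against 4.20% of all genes. Atf3 lay above in Tg, as did 2.62% of all genes, and Jun below, as did 1.58%.

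By sign, 24 of 34 members were lower in Tg and the median log2 fold change was -0.09, beside -0.0024 over all genes tested. Without Tg replicate 1, 16 were lower and the median was 0.02.

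**Figure D3:**
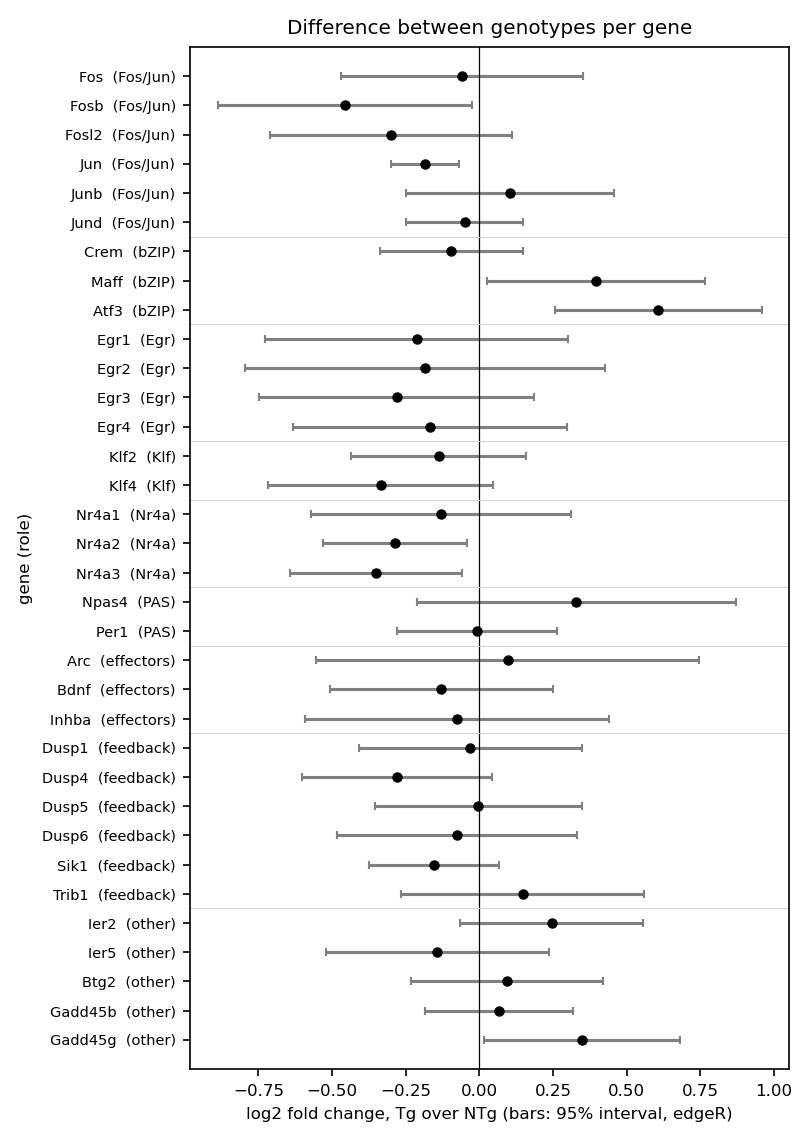
Log2 fold change of each member, Tg over NTg, from edgeR (x axis), with 95% intervals as bars, by gene and role (y axis). The values run from -0.46 (Fosb) to 0.61 (Atf3), and the interval excludes 0 for the 7 genes with an unadjusted p under 0.05.

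Fos and Jun proteins pair as the AP-1 factor, and the log2 fold changes of their genes took both signs. Fos, the classical marker of recently active neurons (ENSMUSG00000021250), stood at 25.1, 16.3, 24.7 and 19.4 CPM in NTg and at 14.3, 25.2, 22.5 and 20.1 in Tg. The genotypes overlapped widely, with Tg replicate 1 lowest and Tg replicate 2 highest. The log2 fold change was -0.06 with a 95% interval of -0.47 to 0.35, and 0.08 without Tg replicate 1. Fos, Junb and the others of the 9 members outside the naming rule were described after their values were seen.

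Fosb, whose shortened splice form accumulates with repeated activity, stood at 13.1, 9.63, 11.7 and 6.92 CPM in NTg and at 7.12, 8.71, 8.33 and 6.001 in Tg. NTg replicate 4 lay among the Tg libraries and the other NTg libraries lay above all of them. Its log2 fold change was -0.46 (SE 0.19, edgeR adjusted p = 0.631). Splice forms are not separated in gene-level counts. Fosl2, which encodes the Fos relative Fra-2, stood at 36.3, 31.8, 45.8 and 26.9 CPM in NTg and at 23.4, 35.8, 32.02 and 23.2 in Tg. NTg replicates 1 and 3 lay above every Tg library and Tg replicates 1 and 4 below every NTg library, with the other libraries between (log2 fold change -0.30, adjusted p = 0.826 by edgeR).

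Jun, the partner of Fos (ENSMUSG00000052684), had narrow groups that stood apart by little. Its NTg libraries were at 46.5, 47.5, 50.3 and 44.2 CPM and its Tg libraries at 39.8, 41.0, 41.5 and 43.4 CPM. The lowest NTg library exceeded the highest Tg library. Its log2 fold change of -0.19 (SE 0.05) did not pass edgeR (adjusted p = 0.285) or DESeq2 (adjusted p = 0.0604). It was -0.17 without Tg replicate 1. Junb stood at 29.9 ± 3.501 CPM (NTg) against 32.1 ± 7.44 CPM (Tg, SD, n = 4 each). Jund, which is expressed without stimulation in most cells, stood at 31.6, 32.9, 33.9 and 25.9 CPM in NTg and at 29.8, 31.3, 27.0 and 31.9 in Tg, with NTg replicate 4 lowest. Junb and Jund had log2 fold changes of 0.10 and -0.05, and that of Junb was 0.24 without Tg replicate 1.

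Among the other leucine zipper factors, Atf3 was the member nearest to a call. Atf3, a stress-induced factor of the ATF and CREB family that also marks injured neurons (ENSMUSG00000026628), stood at 2.11, 2.02, 2.13 and 1.82 CPM in NTg and at 2.22, 3.37, 3.58 and 3.15 in Tg. All 4 Tg libraries lay above all NTg libraries, Tg replicate 1 by the smallest margin. These levels rest on 103 to 208 counts per library. Tg exceeded NTg by a log2 fold change of 0.61 (SE 0.16, 95% interval 0.26 to 0.96). By edgeR the adjusted p was 0.230, by DESeq2 0.0489, and by edgeR without Tg replicate 1 it was 0.0192 with a log2 fold change of 0.74.

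Glial marker levels differed between libraries beside Atf3. The 7 microglia markers summed to 291, 243, 263 and 215 CPM in NTg and 302, 491, 483 and 483 CPM in Tg, and the 7 astrocyte markers to 3521, 3680.0, 3244 and 3909 CPM in NTg and 3440.0, 5249, 4662 and 5293 CPM in Tg. Of the astrocyte markers Gfap carried the difference, with a mean of 431 CPM in NTg and 1534 CPM in Tg, while the median log2 fold change of the 7 was 0.12 and Slc1a2 was at 1961 and 1772 CPM. In both lists Tg replicate 1 was the Tg library nearest to NTg, as it was for Atf3. All 7 microglia markers and 5 of the 7 astrocyte markers were higher in Tg. The part of glial cells in the Atf3 level was not tested.

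Maff, a small Maf factor that lacks an activation domain, stood at 1.17, 1.57, 1.17 and 1.80 CPM in NTg and at 1.81, 1.86, 1.76 and 2.11 in Tg. NTg replicates 1 and 3 were low, and NTg replicate 4 was level with the lower Tg libraries. The difference on the log2 scale was 0.40 (SE 0.17, adjusted p = 0.620 by edgeR), from 66 to 123 counts. Crem, which gives activators and the repressor ICER of cAMP-driven genes, stood at 14.4, 14.0, 15.3 and 14.4 CPM in NTg and at 12.4, 14.2, 16.5 and 11.3 in Tg, with the NTg values inside the range of the Tg values (log2 fold change -0.09, and -0.05 without Tg replicate 1).

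The 4 Egr genes, zinc finger factors induced by synaptic activity, shared their lowest library and, but for a near tie in Egr2, their highest. Egr1, a standard marker of neuronal activity, stood at 159.7, 99.4, 136 and 94.8 CPM in NTg and at 67.1, 143, 113 and 99.1 in Tg. NTg replicates 1 and 3 and Tg replicate 2 were high and Tg replicate 1 was low. Egr3 repeated this at 86.7, 63.9, 83.2 and 56.1 CPM in NTg and at 44.4, 79.9, 69.0 and 45.5 in Tg, with Tg replicate 4 nearly as low as Tg replicate 1. Egr2, which also serves myelinating cells of peripheral nerve, stood at 4.57, 3.05, 3.71 and 2.73 CPM in NTg and at 1.81, 4.57, 3.48 and 2.54 in Tg.

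For Egr1, Egr3 and Egr4 the highest of the 8 libraries was NTg replicate 1, and for Egr2 it was level with Tg replicate 2 (4.57 CPM each). In all 4 genes the lowest library was Tg replicate 1. All 4 were lower in Tg, with log2 fold changes of -0.21, -0.18, -0.28 and -0.17 and adjusted p-values of 0.873 to 0.959 by edgeR. The 95% interval for Egr1 was -0.73 to 0.30, which leaves room for changes of either sign. Without Tg replicate 1 the log2 fold changes of Egr1, Egr2, Egr3 and Egr4 were -0.05, 0.0041, -0.16 and -0.05, and without NTg replicate 1 they were -0.06, -0.03, -0.18 and -0.04. Both refits leave out the library at one end, the lowest of Tg or the highest of NTg, which by itself shrinks the difference. Over all 17 alternative fits the log2 fold changes reached down to -0.40, -0.43, -0.45 and -0.33. Egr1 was at -0.40 without Tg replicate 2 and at -0.32 without NTg replicate 4. The size of the lower values in Tg thus depended on which library was left out.

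The Nr4a genes encode orphan nuclear receptors whose activity is set mainly by how much is made. Nr4a1 stood at 55.8, 38.4, 58.3 and 44.6 CPM in NTg and at 28.7, 55.5, 50.9 and 45.2 in Tg, overlapping and with Tg replicate 1 lowest. Its log2 fold change was -0.13, and 0.04 without Tg replicate 1. Nr4a2, also a factor of dopamine neurons, stood at 37.2, 28.3, 35.3 and 33.0 CPM in NTg and at 22.6, 27.0, 29.4 and 30.8 in Tg. Only NTg replicate 2 lay within the Tg range. Nr4a3 stood at 33.4, 27.5, 40.6 and 29.8 CPM in NTg and at 22.9, 30.0, 27.4 and 22.6 in Tg, where NTg replicates 2 and 4 lay below Tg replicate 2. Neither Nr4a2 nor Nr4a3 passed. Their log2 fold changes were -0.29 (SE 0.11, adjusted p = 0.552) and -0.35 (SE 0.13, adjusted p = 0.528) by edgeR.

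**Figure D4:**
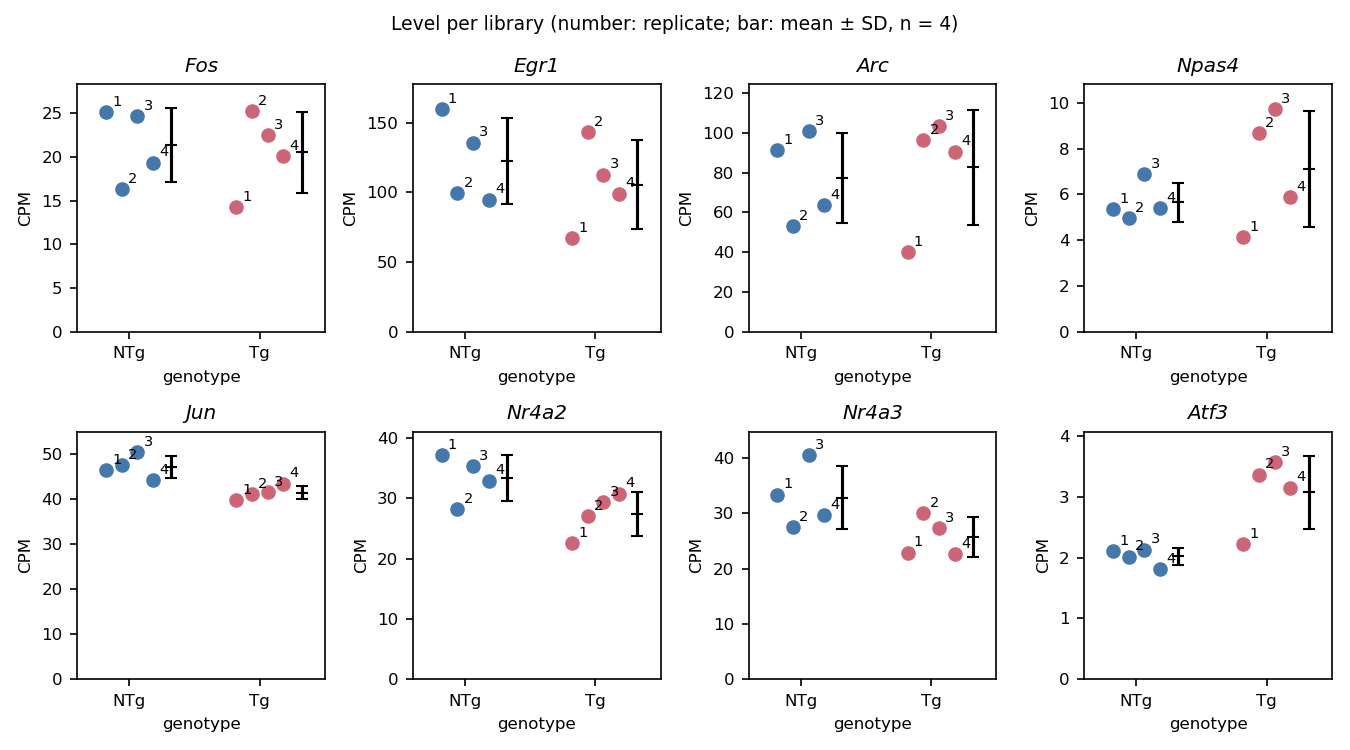
CPM (y axis, from 0) of 8 members by genotype (x axis), with points numbered by replicate and black bars for mean ± SD (n = 4). Fos, Egr1 and Arc overlap widely with Tg replicate 1 lowest, the groups of Jun and Atf3 do not overlap, and Npas4 is high in Tg replicates 2 and 3.

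Npas4, a PAS domain factor found mainly in neurons and induced by calcium entry, had its highest levels in Tg libraries. It stood at 5.37, 4.96, 6.89 and 5.42 CPM in NTg and at 4.15, 8.68, 9.72 and 5.90 in Tg. Tg replicates 2 and 3 lay above every NTg library, Tg replicate 4 among them and Tg replicate 1 below all. On the log2 scale the difference was 0.33 (SE 0.24, adjusted p = 0.868 by edgeR), with a 95% interval of -0.21 to 0.87. It was 0.52 without Tg replicate 1 (adjusted p = 0.332) and 0.14 without Tg replicate 3, so its size changed with single Tg libraries. Per1, a clock gene that light and activity also induce, stood at 70.3, 60.6, 67.3 and 56.1 CPM in NTg and at 56.1, 69.8, 51.9 and 75.4 in Tg. Its group means were nearly level (log2 fold change -0.01, and 0.05 without Tg replicate 1), with Tg replicate 4 highest and Tg replicate 3 lowest.

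Arc, which acts at synapses in the removal of AMPA receptors, had the widest spread of the 34 members. It stood at 91.3, 53.2, 101 and 63.8 CPM in NTg and at 40.0, 96.3, 103 and 90.6 in Tg. NTg replicates 1 and 3 and Tg replicates 2, 3 and 4 were at 90.6 CPM or more, and the other libraries at 63.8 CPM or less. For Arc the log2 fold change was 0.10 with a 95% interval of -0.55 to 0.74 (edgeR adjusted p = 0.985). It was 0.32 without Tg replicate 1, not called.

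Of the secreted effectors, Bdnf, the neurotrophin, stood at 20.6, 18.3, 26.2 and 20.5 CPM in NTg and at 17.2, 23.4, 23.5 and 14.1 in Tg, with NTg replicate 3 highest and Tg replicate 4 lowest. Its log2 fold change of -0.13 became -0.07 without Tg replicate 1 and -0.0013 without Tg replicate 4. Inhba, the activin A subunit, stood at 9.23, 11.8, 10.9 and 9.53 CPM in NTg and at 6.94, 10.2, 15.1 and 7.05 in Tg. Tg replicate 3 lay above every other library and Tg replicates 1 and 4 lay below the NTg range. Its log2 fold change was -0.08, and 0.06 without Tg replicate 1.

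Genes of signalling feedback took both signs, with log2 fold changes from -0.28 (Dusp4) to 0.15 (Trib1). Dusp1, a nuclear phosphatase of stress and growth kinases, stood at 21.6, 19.5, 27.8 and 23.0 CPM in NTg and at 15.5, 22.8, 23.6 and 28.2 in Tg. Dusp6, a cytoplasmic phosphatase of ERK, stood at 52.5, 40.1, 53.0 and 40.3 CPM in NTg and at 31.9, 50.9, 56.99 and 36.7 in Tg. In both, Tg replicate 1 was lowest and the other Tg libraries lay on both sides of the NTg mean. The log2 fold changes were -0.03 and -0.08, and 0.11 and 0.05 without Tg replicate 1. The ERK phosphatases Dusp4 and Dusp5, the kinase Sik1, which holds CREB coactivators out of the nucleus, and the pseudokinase Trib1 had log2 fold changes of -0.28, -0.004, -0.15 and 0.15, with adjusted p-values of 0.745 or more by edgeR. Dusp5 was at 0.04 and Trib1 at 0.30 without Tg replicate 1.

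Of the other early response regulators, Gadd45g, a stress-sensing partner of p38 activators, had the largest fold change. It stood at 9.76, 9.96, 10.3 and 12.6 CPM in NTg and at 10.9, 14.8, 11.6 and 17.1 in Tg, with NTg replicate 4 among the Tg libraries and Tg replicate 4 highest. On the log2 scale Tg minus NTg was 0.35 (SE 0.15, edgeR adjusted p = 0.644). Ier5, a regulator of heat shock factor, stood at 63.8, 49.2, 56.8 and 44.8 CPM in NTg and at 33.9, 55.9, 59.1 and 45.8 in Tg, with Tg replicate 1 low, and Btg2, an antiproliferative factor that speeds mRNA decay, at 11.7, 10.2, 13.0 and 14.9 CPM in NTg and at 10.1, 15.3, 13.3 and 14.2 in Tg. Both overlapped (log2 fold changes -0.14 and 0.09), and without Tg replicate 1 their log2 fold changes were -0.0034 and 0.20. Ier2 and Gadd45b had log2 fold changes of 0.24 and 0.07, neither called, and that of Gadd45b was 0.13 without Tg replicate 1.

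The Klf factors, which in brain are also expressed in endothelium, kept another order of libraries. Klf2, a flow-responsive factor of endothelium, stood at 5.32, 4.61, 4.90 and 3.69 CPM in NTg and at 4.78, 3.80, 3.91 and 4.34 in Tg, and Klf4 at 4.99, 6.58, 6.43 and 4.61 CPM in NTg and at 4.89, 4.52, 5.23 and 3.27 in Tg. Tg replicate 1 was not lowest in either, and the lowest levels were in NTg replicate 4 (Klf2) and Tg replicate 4 (Klf4). The log2 fold changes were -0.14 and -0.33 (adjusted p = 0.919 and 0.741 by edgeR). The 8 endothelial markers, all lower in Tg, summed to 282, 253, 228 and 269 CPM in NTg and 238, 215, 214 and 178 CPM in Tg, with Tg replicate 4 lowest, and their part in the Klf levels was not tested.

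The members differed widely in how much they varied. The SD of log2 CPM over the 4 libraries of a genotype, averaged over both genotypes, was 0.54 for Arc, 0.45 for Egr2 and 0.41 for Egr1 at the upper end. It was 0.06 for Jun and 0.14 for Jund at the lower end. The median over members was 0.27, beside 0.14 over all genes tested, and 32 of the 34 lay above the latter. Genes of like abundance (mean CPM from 1.66 to 114, 13388 genes) had a median of 0.11. The biological coefficient of variation in edgeR gave the same picture, with a median of 0.17 over members and 0.12 over all genes. These medians were 0.14 over members and 0.12 over all genes without Tg replicate 1, so the excess was smaller but still present. The comparison depended on which low-count genes were kept. With no filter on low counts the medians were 0.17 over members and 0.21 over all genes, the reverse order. With a minimum of 1 CPM in 4 libraries they were 0.17 and 0.09. With the spread of the members and 4 libraries a genotype, the 95% intervals of Fos, Egr1 and Arc were wide. They reach from -0.47, -0.73 and -0.55 to 0.35, 0.30 and 0.74 on the log2 scale. Changes of either sign within those bounds remain compatible with these data.

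**Figure D5:**
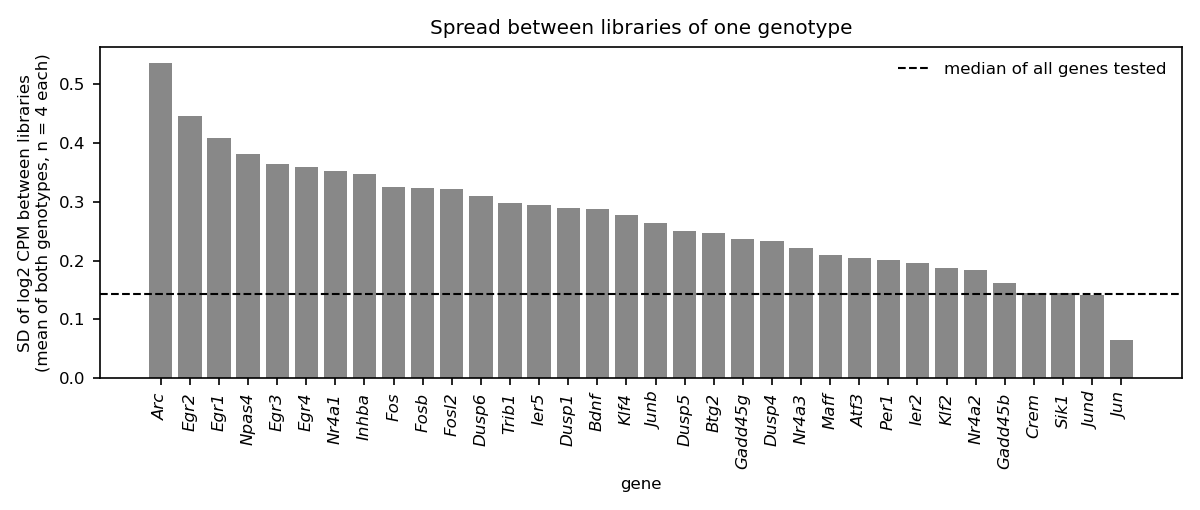
SD of log2 CPM between libraries of one genotype, as the mean of both genotypes (y axis, n = 4 each), for each member (x axis, in falling order), with the median over all genes tested as a dashed line. Bars run from 0.54 (Arc) to 0.06 (Jun), and 32 of 34 exceed the dashed line at 0.14.

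Levels between members were compared per kilobase of exon, with lengths from GENCODE release M21, which is on build GRCm38 and may differ from the annotation used for the counts. On this scale Egr1 and Arc were most abundant in NTg, at 27.3 and 25.3 CPM per kb, followed by Jund at 18.6, Egr3 at 16.4 and Ier5 at 16.4 CPM per kb. The order of Egr1 and Arc turned in Tg, at 23.6 and 27.0 CPM per kb, a difference within the spread of either gene. Maff, Atf3, Egr2 and Npas4 were the least abundant in NTg, at 0.551, 0.938, 1.03 and 1.37 CPM per kb.

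Genes of the wider activity programme gave a like result. Of 32 other activity-induced genes, 12 were higher and 20 lower in Tg, with a median log2 fold change of -0.03, and edgeR called 0. At an unadjusted p under 0.05, 3 of 32 were higher (Cebpd, Ccn1 and Gem), where 4.68% of all genes were, and 1 of 32 lower (Per2), near the 2.68% of all genes. Gem, a small GTP-binding protein named after its values were seen, stood at 1.77 ± 0.234 CPM (NTg) against 2.57 ± 0.633 CPM (Tg, SD, n = 4 each). The score of these 32 genes had an SD of 0.05 in NTg and 0.13 in Tg, with Tg replicate 1 again lowest at -0.15.

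Cebpd, an acute-phase factor also found in astrocytes, stood at 3.02, 4.26, 3.87 and 4.20 CPM in NTg and at 4.98, 10.3, 6.61 and 11.6 in Tg, and all Tg libraries lay above the NTg libraries. Its log2 fold change was 1.12 (SE 0.25), with an adjusted p of 0.167 by edgeR and 0.00108 by DESeq2. Ccn1, a matrix protein induced through SRF, stood at 2.92, 2.38, 2.68 and 3.76 CPM in NTg and at 3.18, 6.15, 5.27 and 6.82 in Tg (log2 fold change 0.87, adjusted p = 0.263 by edgeR and 0.0205 by DESeq2). With Tg replicate 1 left out, edgeR called both, at adjusted p-values of 0.0139 and 0.0181. In both genes Tg replicate 1 was the lowest Tg library, so leaving it out widened both differences by itself. It was also the lowest Tg library for the sum of the astrocyte markers, whose part was not tested.

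Per2, the clock partner of Per1, stood at 26.6, 27.6, 31.3 and 25.0 CPM in NTg and at 24.8, 24.6, 22.8 and 22.3 in Tg, lower in every Tg library (log2 fold change -0.22, edgeR adjusted p = 0.409). The late genes with the most counts overlapped between genotypes. Scg2, a granin precursor of neuropeptides, stood at 313 ± 47.9 CPM (NTg) against 281 ± 68.2 CPM (Tg, SD, n = 4 each), and Homer1, a postsynaptic scaffold, at 149.7 ± 17.6 CPM (NTg) against 138 ± 41.3 CPM (Tg, SD, n = 4 each).

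Genes that carry the signal to early gene promoters varied less between libraries than the early genes. Of 32 calcium, cAMP and MAPK pathway genes, 14 were higher and 18 lower in Tg with a median log2 fold change of -0.01, and edgeR called 0, with 1 of 32 at an unadjusted p under 0.05, a share below the 7.36% of all genes. The median was 0.0059 without Tg replicate 1. The gene under that p was Rps6ka1, a kinase below ERK, at 26.8, 29.4, 30.7 and 36.1 CPM in NTg and at 36.4, 36.1, 34.5 and 42.8 in Tg (log2 fold change 0.28, adjusted p = 0.449). Next in p came the histone deacetylase Hdac4 (log2 fold change -0.12) and the kinase Mapk3 (0.10). Camk2a, the calcium-activated kinase of excitatory synapses, stood at 1449 ± 153 CPM (NTg) against 1387 ± 185 CPM (Tg, SD, n = 4 each), with 1128 CPM in Tg replicate 1, and the calcineurin subunit Ppp3ca at 936 ± 40.3 CPM (NTg) against 876 ± 76.0 CPM (Tg, SD, n = 4 each). The score of this list had an SD of 0.02 in NTg and 0.05 in Tg, where that of the early genes was 0.15 and 0.23.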

How the data were processed

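RNA sequencing measured gene expression in 8 libraries, 4 Tg and 4 NTg. Per the labels' protocols they were prepared with TruSeq RNA version 2, a kit that keeps no strand, and read as 75-base pairs on a NextSeq 500, so overlapping antisense genes cannot be told apart. The authors deposited raw read counts per Ensembl gene for 56748 genes, with no normalization. The submitters' processing notes name STAR, DESeq2 and build GRCm39, without versions. How reads were counted, and with which annotation, is not given in the sources used here. Groups and replicate numbers come from the sample titles, and columns were matched by library name.

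Symbols were matched by Ensembl identifier (52073 of 56748 genes). The filterByExpr function of edgeR (the CPM that equals 10 counts, reached in at least 4 libraries, and at least 15 counts in total) left 21588 genes. TMM factors scaled the libraries, and each gene was tested by the quasi-likelihood F test of edgeR 4.0.16 in R 4.3.3, on the 8 libraries with genotype as the only term. P-values were adjusted by Benjamini-Hochberg across the 21588 genes, and 0.05 was the threshold. Log2 CPM used a prior count of 2. Each SE is the log2 fold change over the square root of its F. The code was tested on simulated counts. Libraries of one genotype differed beyond sampling noise in every pair (chi-square per degree of freedom 11.0 or more).

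The members and gene lists were chosen with earlier results of these data known, so no test over a list is given. Values in every library are given for the 2 members of each role with the most counts (all where a role has 2 or 3), for those with an unadjusted p under 0.05 or groups without overlap, for the 3 of widest and 2 of narrowest spread, and for Fos. In each pathway list the 3 genes of smallest p and the 2 of most counts are named. DESeq2 1.42.0, limma-voom (limma 3.58.1), other scaling factors, filters and prior counts, a replicate block, robust dispersion and leaving out each library were the alternatives. Motifs were searched on both strands of RefSeq promoter windows.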

Additional observations from a re-analysis of the deposited data

How the results depend on the processing

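The score difference kept its negative sign with other scaling factors, prior counts and filters (-0.07 to -0.04). It was 0.0038 with the median over members in place of the mean, and -0.12 over 10 classic neuronal early genes alone. Leaving out 1 library gave -0.13 to 0.04. The median log2 fold change of the members ran from -0.15 to 0.02 with 1 library left out, and was positive only without Tg replicate 1. All these shifts were within the SD between libraries.

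The count of members called was 1 with DESeq2 (Atf3) and 0 to 1 with 1 library left out, the 1 being Atf3 without Tg replicate 1. Over all genes edgeR called 3, DESeq2 352, edgeR with no filter on low counts 127, at an FDR of 0.10 16, and with 1 library left out 3 to 314 (314 without Tg replicate 1, 16 without NTg replicate 1 and 9 without Tg replicate 2). Of the other activity-induced genes, DESeq2 called 2 (Cebpd and Ccn1), edgeR with no filter 1 (Cebpd), and edgeR with 1 library left out 0 to 2. With the replicate number as a block, edgeR called 1 gene in all and 0 members. Same-numbered libraries did not deviate together in every pair (correlations of their deviations from the group means -0.03 to 0.16). Whether they share more than a number was not tested. The 7 members with an unadjusted p under 0.05 became 5 to 8 under the other settings and 2 to 11 with 1 library left out, an alternative added after seeing the data, as were those for the pathway lists and the spread. Beside these counts the share over all genes was not taken, except without Tg replicate 1.

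Of 578 refitted values of single members, 27 changed sign, none of them called, the cause was not tested, and Atf3 passed in 2. The log2 fold change of Dusp5 was 0.029 with limma-voom, 9e-04 with upper quartile factors, 0.0225 with library totals only and 0.0215 with the replicate block, and that of Per1 was 0.0172 with library totals only. With 1 library left out, log2 fold changes ran from -0.173 to 0.0812 for Fos, -0.434 to 0.0041 for Egr2, -0.0471 to 0.325 for Arc, -0.246 to 0.0355 for Nr4a1, -0.157 to 0.113 for Dusp1, -0.124 to 0.126 for Dusp5, -0.223 to 0.0519 for Dusp6, -0.0316 to 0.13 for Gadd45b, -0.102 to 0.0769 for Per1 and -0.36 to 0.0586 for Inhba.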
